A study of Mus musculus with 4 samples.

Results

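The genes described here encode a receptor and its ligand, a transcription factor and the kinases and regulators that control the awakening of primordial follicles: Kitl, Kit, Pdpk1, Foxo3, Tsc1, Tsc2, Mtor, Rptor and Rps6kb1. They were chosen by symbol for their known roles, although earlier results of these data were known by then. Each was matched to 1 row of the count files through its Ensembl identifier. They make up 9 of the 55401 identifiers counted in each library. RNA was measured in SSEA-1-positive germ cells of E18.5 female fetuses of ICR mice, whose mothers were kept for 4 months on a normal diet (ND in what follows) or on one high in fat (HFD). The labels call the cells PGCs and the study calls them fetal oocytes, and the labels name no allele or drug. Each library was made with SMART-Seq2, a full-length cDNA protocol for small inputs, from sorted cells pooled from several fetuses, and there were 2 libraries per diet. Nothing in the labels says how litters were divided between the libraries of a diet, so p-values measure the spread between these libraries, which may be partly technical.

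In the postnatal ovary, KIT ligand made by the granulosa cells binds the KIT receptor on the oocyte, and the lipids made by PI3K recruit PDK1 and AKT. AKT phosphorylates FOXO3 and drives it out of the nucleus, where it otherwise keeps the primordial follicle dormant. The mTORC1 kinase complex acts beside this route through S6 kinase and is held back by TSC1 and TSC2, and germ cell survival before birth also depends on KIT. The question of the comparison is whether the mother's diet was accompanied by a different RNA level of these genes in fetal germ cells.

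The 4 libraries held 8223255 and 7815015 counts for ND and 6456825 and 5723605 counts for HFD, so that 3 counts stood for 0.365 to 0.524 CPM (counts per 1000000 counts of the library). Germ cell markers were present in every library: between 8 and 10 of 12 were above background, with a summed level of 2174 to 6074 CPM. Which of them were high differed between the libraries, and the HFD mean CPM was the higher for 8 of the 12 and the lower for 4. Ddx4, a germ cell RNA helicase, had 49 and 97 counts in ND and 5 and 14 in HFD, where it was below the background limit. Dazl, an RNA-binding protein of germ cells, had 14247, 29465 and 2926 counts in 3 libraries and 49 in HFD replicate 2. In the other direction, Sycp1, of the synaptonemal complex, had 36 and 48 counts in ND and 9038 and 7978 in HFD, and Nobox, an oocyte transcription factor, had 14 and 50 in ND and 8252 and 3246 in HFD. Fut9, the enzyme that makes the sorted SSEA-1 epitope, had 39, 32, 14 and 11 counts and was below background in all 4. Background was set from 1135 olfactory receptor genes, a family of sensory neurons: the limit was the 99th percentile of their reads per kilobase in each library. This limit was 8.47 and 9.01 reads per kilobase in ND and 7.44 and 12.5 in HFD, and a gene above it also had to have more than 3 counts.

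All 9 genes had counts in all 4 libraries, but 10 of their 36 values were above background. Kit and Foxo3 were above it in 3 libraries each, Tsc1, Tsc2, Mtor and Rps6kb1 in 1 library each, and Kitl, Rptor and Pdpk1 in none. Per library, 2 of the 9 were above background in ND replicate 1, 4 in ND replicate 2, 2 in HFD replicate 1 and 2 in HFD replicate 2. Over all 21897 protein-coding genes, 57.3% were above background in no library, 22.3% in 1, 11.5% in 2, 5.64% in 3 and 3.36% in 4. The share of protein-coding genes above background was 24.9% and 22.1% in ND and 13.3% and 15.2% in HFD. Counting every value with more than 3 counts as present would put all 36 above the limit.

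**Figure D1:**
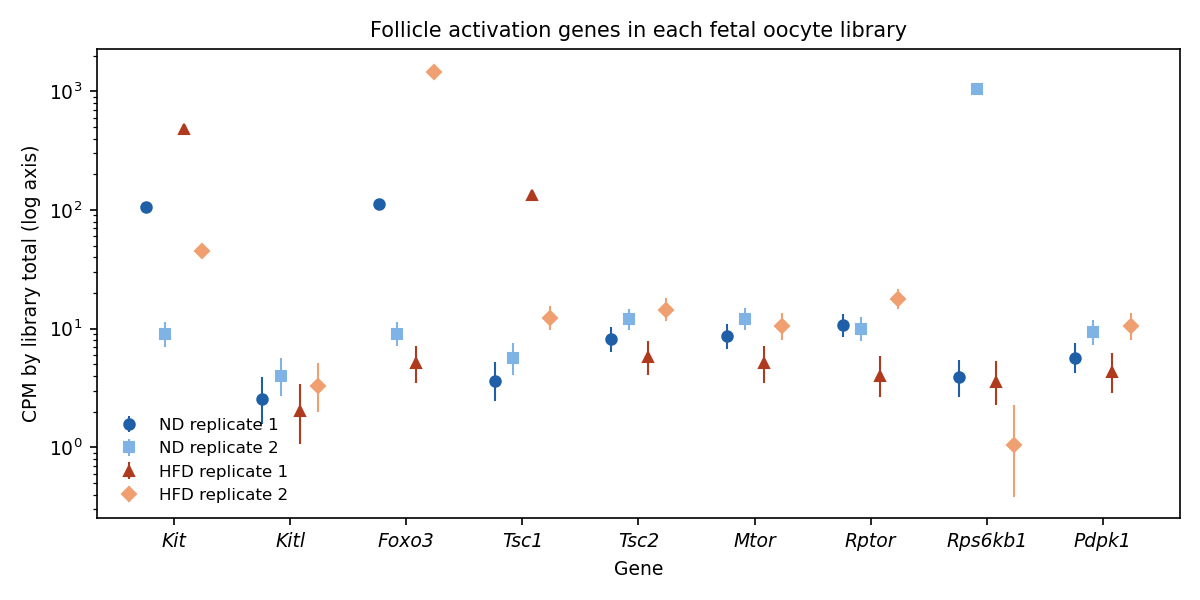
Level of each follicle activation gene in each library, in CPM of the library total on a log axis; points are single libraries and bars are exact Poisson 95% intervals, which cover counting error only. Kit, Foxo3, Tsc1 and Rps6kb1 each have 1 library far above the others, while Kitl, Tsc2, Mtor, Rptor and Pdpk1 stay between 2.01 and 17.8 CPM.

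Kitl, which encodes the ligand that granulosa cells present to KIT (chr10:100015630-100100416, plus strand, GRCm38), gave few counts in every library. It had 21 and 31 counts in ND and 13 and 19 in HFD, or 2.55, 3.97, 2.01 and 3.32 CPM. The diets overlapped, with means of 3.26 ± 0.999 CPM for ND and 2.67 ± 0.924 CPM for HFD (SD, n = 2 each). No library passed the background limit, and the highest, ND replicate 2, reached 0.582 of it. The log2 fold change of HFD over ND was -0.39 (SE 0.43, edgeR quasi-likelihood, adjusted p = 0.766). Markers of pregranulosa cells, the cells that would make this ligand, were sparse. Of 10 such markers, 2 and 3 were above background in ND and 0 and 2 in the HFD libraries, and their summed level was 37.3, 408, 22.0 and 1169 CPM. Fst, an activin-binding protein, gave 2990 counts in ND replicate 2, and Amhr2, a receptor for anti-Müllerian hormone, gave 6372 counts in HFD replicate 2. By CPM, 5 of the 10 markers were higher in each ND library than in the other, and 9 were higher in HFD replicate 2 than in HFD replicate 1. Foxl2, the defining transcription factor of the lineage, had 34, 19, 14 and 34 counts. The part of such cells in the Kitl level was not tested.

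Kit, which encodes the receptor on the oocyte surface (chr5:75574916-75656722, plus strand), was above background in both diets, and its level differed more than 10-fold between libraries of the same diet. Its counts were 876 and 70 for ND and 3111 and 257 for HFD. These are 106.5 CPM (95% exact Poisson interval 99.6 to 113.8) and 8.96 CPM (6.98 to 11.3) for ND, and 481.8 CPM (465.0 to 499.1) and 44.9 CPM (39.6 to 50.7) for HFD. Replicate 1 was the higher library in each diet, and ND replicate 1 lay above HFD replicate 2, so the diets overlapped. Against the background limit the 4 values were 11.6, 0.872, 47.0 and 2.30 times as high, which leaves ND replicate 2 just under it. The diet means were 57.7 ± 69.0 CPM and 263 ± 309 CPM (SD, n = 2 each), a 4.56-fold higher mean in HFD beside a ratio of 11.9 between the ND libraries and 10.7 between the HFD libraries. The log2 fold change was 2.66 (SE 2.22, 95% interval -2.94 to 8.26, adjusted p = 0.669 by edgeR). Without HFD replicate 1, which held 75.0% of the summed CPM, it was -1.04.

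KIT is also known from mast cells, so the markers of that lineage are given beside it. Of 4 mast cell markers, 1 was above background in each library, with a summed level of 10.7 and 8.83 CPM in ND and 72.3 and 18.2 CPM in HFD. Mcpt4, a mast cell protease, had 441 counts in HFD replicate 1, the library with the highest Kit, while Cpa3 had 5 counts and Fcer1a 0 there. Mcpt4 was at 0 in ND replicate 1 and Cpa3 at 0 in ND replicate 2. On the chromosome Kit lies between Pdgfra and Kdr, which encode related receptor kinases of stroma and endothelium. Kdr had 4398 counts in HFD replicate 1 and 28 to 67 in the others. Pdgfra had 58, 29, 5 and 151 counts, lowest where Kit was highest. The part of other cell types in the Kit level was not tested.

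Pdpk1 encodes PDK1, the kinase that phosphorylates AKT and S6 kinase (chr17:24073680-24150924, minus strand). Its counts were 47 and 73 in ND and 28 and 60 in HFD, or 5.72, 9.34, 4.34 and 10.5 CPM, and no library reached the background limit. By library total the HFD libraries bracketed the ND libraries. After TMM scaling the ND libraries, at 5.75 and 10.1 CPM, bracketed the HFD libraries, at 6.36 and 7.18 CPM. The means were 7.53 ± 2.56 and 7.41 ± 4.35 CPM (SD, n = 2 each), and the log2 fold change was -0.23 (SE 0.54, adjusted p = 0.921 by edgeR).

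Foxo3, the transcription factor that keeps primordial follicles dormant (chr10:42181841-42276755, minus strand), gave the most counts of the 9 genes in a single library. Its counts were 934 and 71 for ND and 33 and 8405 for HFD. The levels were 113.6 CPM (106.4 to 121.1) and 9.09 CPM (7.10 to 11.46) for ND, and 5.11 CPM (3.52 to 7.18) and 1468 CPM (1437 to 1500) for HFD, with exact Poisson 95% intervals. The lowest and the highest of the 4 libraries were thus both HFD libraries, 287-fold apart, and the ND libraries differed 12.5-fold. Against background the values were 14.6, 1.04, 0.586 and 88.7 times the limit, so HFD replicate 1 showed no Foxo3 beyond background and ND replicate 2 barely passed. HFD replicate 2 held 92.0% of the summed CPM. The diet means of 61.3 ± 73.9 and 737 ± 1035 CPM (SD, n = 2 each) differed 12.01-fold, and the log2 fold change was 3.03 (SE 2.63, 95% interval -3.58 to 9.65, adjusted p = 0.684 by edgeR). It was -3.03 without HFD replicate 2.

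Tsc1, the hamartin subunit of the complex that restrains mTORC1 (chr2:28641228-28691167, plus strand), was seen in 1 library. Its counts were 30 and 44 in ND and 870 and 71 in HFD, or 3.65, 5.63, 134.7 and 12.4 CPM. Both HFD libraries lay above both ND libraries, but HFD replicate 2 reached 0.479 of its background limit and HFD replicate 1 alone passed, at 9.89 times. The means were 4.64 ± 1.40 and 73.6 ± 86.5 CPM (SD, n = 2 each), a 15.9-fold difference beside a 10.9-fold ratio between the HFD libraries. The log2 fold change was 4.39 (SE 1.79, 95% interval -0.05 to 8.84), with an unadjusted p of 0.052 and an adjusted p of 0.406 in edgeR. Without HFD replicate 1 it was 0.68.

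Tsc2, the tuberin subunit with the GTPase-activating domain that acts on RHEB (chr17:24595816-24632630, minus strand), did not follow Tsc1. It had 67 and 94 counts in ND and 37 and 83 in HFD, or 8.15, 12.03, 5.73 and 14.5 CPM. By library total the HFD libraries again bracketed the ND libraries. After TMM scaling the ND libraries, at 8.19 and 13.1 CPM, bracketed the HFD libraries, at 8.41 and 9.94 CPM. ND replicate 2 was above background by a factor of 1.08 and the others were below. The means were 10.1 ± 2.74 and 10.1 ± 6.20 CPM (SD, n = 2 each), and the log2 fold change was -0.21 (SE 0.59, adjusted p = 0.936 by edgeR) with TMM scaling and 0.01 with library size only. Tsc2 shares 693 exon bases, 7.20% of its exons, with Pkd1 on the other strand. The strand setting of the counting is not given in the sources used here, so reads from those bases cannot be divided between the 2 genes.

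Mtor, the kinase of both mTOR complexes (chr4:148448611-148557683, plus strand), had 71 and 95 counts in ND and 33 and 60 in HFD. These are 8.63, 12.2, 5.11 and 10.5 CPM, of which ND replicate 2 passed the background limit by a factor of 1.04. The means were 10.4 ± 2.49 and 7.80 ± 3.80 CPM (SD, n = 2 each), and the log2 fold change was -0.57 (SE 0.56, adjusted p = 0.725 by edgeR). By library total the diets overlapped, and after TMM scaling both HFD libraries, at 7.50 and 7.18 CPM, lay below the ND libraries, at 8.68 and 13.2 CPM.

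Rptor encodes Raptor, the scaffold that defines mTORC1 (chr11:119602905-119899576, plus strand). Its 88 and 78 counts in ND were close to each other, at 10.7 and 9.98 CPM, while its 26 and 102 counts in HFD, at 4.03 and 17.8 CPM, lay on either side of them. None passed the background limit, and the log2 fold change was -0.25 (SE 0.64, adjusted p = 0.928 by edgeR) with TMM scaling and 0.09 with library size only.

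Rps6kb1, which encodes S6 kinase 1, a kinase switched on by mTORC1 (chr11:86498871-86544805, minus strand), had the widest range of the 9 genes. Its counts were 32 and 8218 in ND and 23 and 6 in HFD. ND replicate 2 stood at 1052 CPM (1029 to 1075), 105 times its background limit, and held 99.2% of the summed CPM. The other ND library, at 3.89 CPM (2.66 to 5.49), was close to HFD replicate 1 at 3.56 CPM (2.26 to 5.34), and HFD replicate 2 was lowest at 1.05 CPM (0.385 to 2.28). Those 3 libraries were all below background. By library total both HFD libraries lay below both ND libraries, and after TMM scaling the diets overlapped, with ND replicate 1 at 3.91 CPM and HFD replicate 1 at 5.23 CPM. The means were 528 ± 741 and 2.31 ± 1.78 CPM (SD, n = 2 each), 229-fold lower in HFD, beside a 270-fold ratio between the ND libraries. The log2 fold change was -7.59 (SE 3.25, 95% interval -15.62 to 0.44), with an unadjusted p of 0.060 and an adjusted p of 0.406 in edgeR. Without ND replicate 2 it was -0.39. Rnft1, which overlaps 155 exon bases of Rps6kb1 on the other strand, had 1457, 34, 18 and 15 counts, so its high library was not that of Rps6kb1.

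Per kilobase of exon (RPKM, reads per kilobase of exon and per 1000000 counts), the order of mean levels over the 4 libraries was Foxo3 at 52.7, Rps6kb1 at 30.6, Kit at 18.0 and Tsc1 at 3.30. Then came Tsc2 at 1.05, Mtor at 0.900, Rptor at 0.789, Pdpk1 at 0.683 and Kitl at 0.501 RPKM. Neighbours in this order did not separate: the 4 leading genes were each carried by 1 library, and the ranges of the 5 lower genes overlapped from each to the next. By the median over libraries, Kit at 8.50 and Foxo3 at 8.10 RPKM led, and Rps6kb1, at 0.430 RPKM, was the lowest of the 9.

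Between the diets, no member passed the test. Of all 19335 genes tested by edgeR's quasi-likelihood test, 0 (0%) had an adjusted p under 0.05 with a fold change over 1.5, and 0 of the 9 members did. Without adjustment, 2171 genes (11.2% of those tested) and 0 members had a p under 0.05. Of the members, 3 had a positive and 6 a negative log2 fold change, with a median of -0.23 beside 0.03 over all genes tested. By library total, 1 of the 9 members, Tsc1, had both HFD libraries above both ND libraries, against 13.9% of all genes tested, and 1, Rps6kb1, had both below, against 13.4%. With library size only as the scaling, the median over all genes moved to 0.21. Relative to the median of all genes, Tsc2 was then -0.20 and Rptor -0.13, on the same side as with TMM scaling.

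DESeq2 on all genes gave a different count. It gave an adjusted p to 8 members, all but Kitl, and called Tsc1 higher (log2 fold change 4.32, SE 1.47, adjusted p = 0.0095) and Rps6kb1 lower (-7.72, SE 1.77, adjusted p = 0.00014) in HFD. Of the 5601 genes with an adjusted p in that fit, 24.3% were called higher and 21.0% lower, so 1 of 8 members in each direction was below the share over all genes. Kit had an adjusted p of 0.168 and Foxo3 of 0.148 in that fit. This fit was repeated without each library in turn, which was added once the values were known. Tsc1 was then called without HFD replicate 2 (adjusted p = 0.0074 by DESeq2) and in none of the other 3 fits, where its adjusted p was 0.132 without ND replicate 1, 0.059 without ND replicate 2 and 0.9998 without HFD replicate 1. Rps6kb1 was called in 3 of the 4 fits, and without ND replicate 2 its log2 fold change was -0.45 and DESeq2 gave no adjusted p. Kit and Foxo3 were called higher in HFD in 1 of the 4 fits, that without ND replicate 1 (adjusted p = 0.046 and 0.048 by DESeq2).

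**Figure D2:**
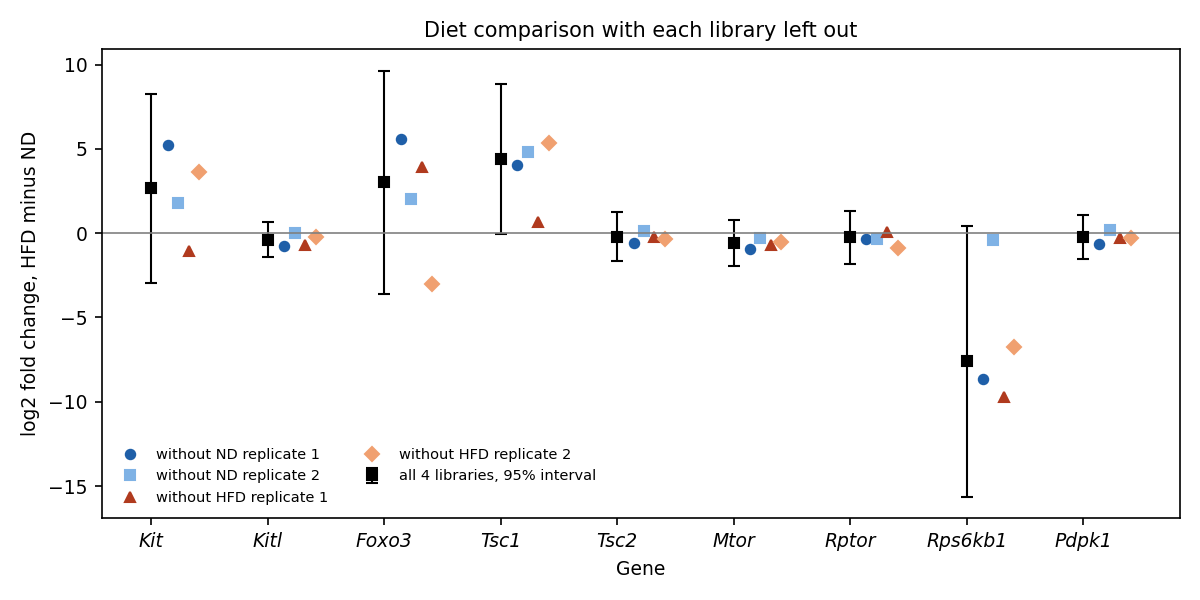
Log2 fold change of HFD minus ND for each gene by edgeR's quasi-likelihood fit; black squares are all 4 libraries with 95% intervals and coloured points leave out 1 library each. Every interval includes 0, and the largest sign changes are those of Kit without HFD replicate 1 (-1.04) and Foxo3 without HFD replicate 2 (-3.03); Tsc2, Rptor and Pdpk1 cross 0 as well.

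The spread within a diet was set beside the difference between diets for each gene, in CPM by library total. For every member but Tsc1, the larger of the within-diet ratios exceeded the ratio of the higher to the lower diet mean. For Tsc1 the ratio of means was 15.9 beside 10.9 within HFD. For Kitl, Tsc2, Mtor, Rptor and Pdpk1 the within-diet ratios ran from 1.07 to 1.63 in ND and from 1.65 to 4.43 in HFD. The TMM factors were 1.02 and 0.940 in ND and 0.692 and 1.51 in HFD, so the HFD ratios depended on the scaling. After TMM scaling, the HFD libraries stood at 2.95 and 2.27 CPM for Kitl and 5.91 and 12.2 CPM for Rptor. They stood at 8.41 and 9.94 CPM for Tsc2, 7.50 and 7.18 CPM for Mtor and 6.36 and 7.18 CPM for Pdpk1. Of these genes, Rptor alone then kept the wider ratio within HFD. Of the 19335 genes tested, 19041 in ND and 18893 in HFD had counts in both libraries of the diet and so had a ratio. Over these genes, the median ratio of the higher to the lower library, by library total, was 1.83 within ND and 2.97 within HFD. A ratio over 10 was found for 10.4% of them within ND and 15.6% within HFD. Among the members it was found for 3 within ND (Kit, Foxo3 and Rps6kb1) and 3 within HFD (Kit, Foxo3 and Tsc1).

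**Figure D3:**
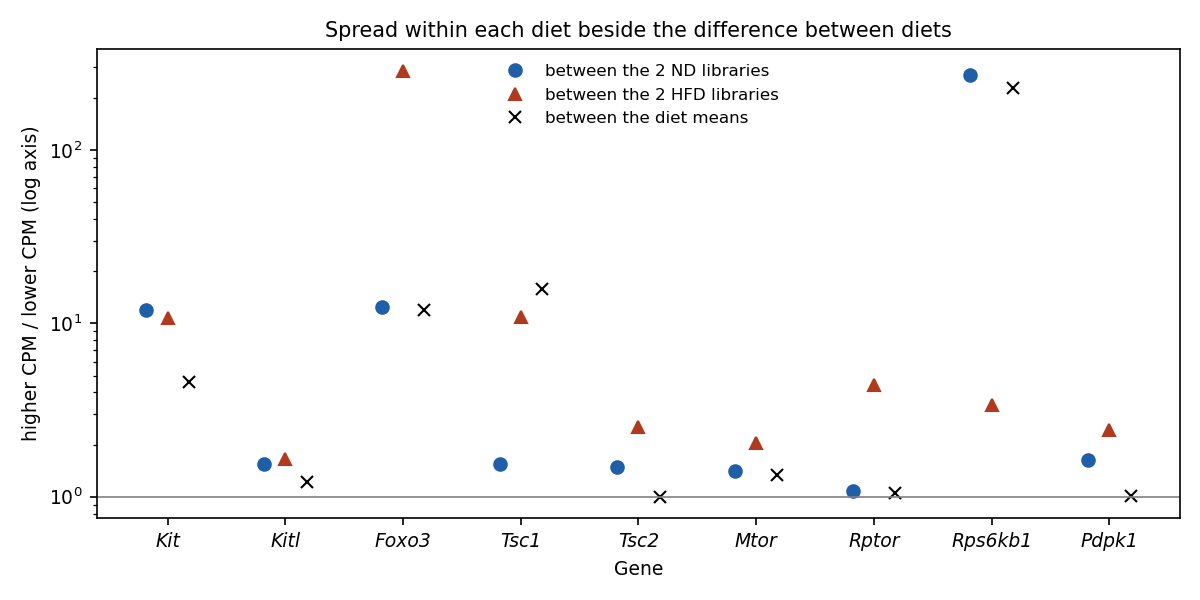
Ratio of the higher to the lower CPM by library total of each gene, on a log axis, between the ND libraries (circles), between the HFD libraries (triangles) and between the diet means (crosses). Foxo3 differs 287-fold within HFD and Rps6kb1 270-fold within ND, each more than between the diet means.

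The genes whose pattern over the 4 libraries was most like each member were found among 15805 protein-coding genes by the distance of log2 TMM-scaled CPM. Near Kit were Gnb4, with 927, 108, 3782 and 142 counts in ND replicates 1 and 2 and HFD replicates 1 and 2, and Purb. Near Foxo3 was Igf2bp2, with 1994, 69, 28 and 8808 counts in the same order. Laptm4a and Dpm1 were nearest to Tsc1, with 981 and 906 counts in HFD replicate 1 and 28 to 65 elsewhere. Cip2a and Prdx6 were nearest to Rps6kb1, with 5646 and 13491 counts in ND replicate 2 and 10 to 39 elsewhere. For the members near background the neighbours were Dus2 and Asb6 for Kitl, Mknk2 and Atp8a2 for Tsc2, and Cemip and Wscd2 for Mtor. They were Celsr1 and Fbrsl1 for Rptor and Abcc8 and Mpp6 for Pdpk1. At a distance below 1 there were 0 genes for Kit, 3 for Rps6kb1, 43 for Tsc1 and 257 to 1154 for the 5 members near background. In terms of the libraries in which a gene was above background, Kit shared its pattern with 130 protein-coding genes, Foxo3 with 600, Tsc1 with 792 and Rps6kb1 with 1383, its own row included.

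The same values were taken for a further 57 genes of the pathway, in 7 lists. Of these, 15 were above background in no library, 23 in 1, 8 in 2, 8 in 3 and 3 in 4, the last being Akt1, Lamtor5 and Pdcd4. Per library, 28 and 22 of the 57 were above background in ND and 10 and 15 in HFD, beside the lower shares of all protein-coding genes in the HFD libraries given above. edgeR tested 55 of them and called 0. Their log2 fold changes were positive for 25 and negative for 30, with a median of -0.21. Without adjustment, 6 had a p under 0.05, or 10.9% of those tested, close to the 11.2% of all genes. These 6, named after their values were seen, were Foxo1, Lamtor5, Rheb, Eif4e and Flcn, lower in HFD, and Nprl2, higher in HFD, and each had an adjusted p of 0.406. By DESeq2 on all genes, 23 of the 57 had an adjusted p and 11 were called, 47.8% beside 45.3% of all genes with one.

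In the list of PI3K and AKT genes upstream of FOXO3, edgeR called 0 of 9, with 6 log2 fold changes positive and 3 negative. Pik3r1, the regulatory subunit of PI3K, had 58 and 35 counts in ND and 24 and 13735 in HFD, high in the same library as Foxo3. DESeq2 on all genes called Pik3r1 higher in HFD, although it was above background in 1 library. Akt1 had 46 counts in each ND library and 44 and 101 in the HFD libraries, or 5.59, 5.89, 6.81 and 17.6 CPM. By library total both HFD libraries thus lay above both ND libraries, as for 13.9% of all genes tested. Its log2 fold change was 0.88 (SE 0.52, adjusted p = 0.490 by edgeR).

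Of 5 genes in the list of the FOXO family and its targets, 0 were called by either tool, and DESeq2 gave none of them an adjusted p. The most abundant per kilobase was Foxo6, with 28, 11, 4 and 28 counts. Foxo1, the relative of Foxo3 with which it shares many targets, had 59 and 50 counts in ND and 10 and 25 in HFD (log2 fold change -1.42, SE 0.41, adjusted p = 0.406 by edgeR). It was below background in all 4 libraries.

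Rheb, the small GTPase on which the TSC complex acts, belongs to a list of 3 genes of which edgeR called 0. It had 4786 and 207 counts in ND and 26 and 55 in HFD, above background in both ND libraries and in neither HFD library, with a log2 fold change of -5.61 (SE 2.10, adjusted p = 0.406 by edgeR) and an adjusted p of 0.00054 in DESeq2 on all genes. It was thus high in ND replicate 1, where Tsc1 and Tsc2 were below background. Of the 7 other subunits of the mTOR complexes, edgeR called 0, and DESeq2 called Prr5l and Rictor, both of mTORC2, higher in HFD. Prr5l had 18, 41, 24 and 7267 counts and Rictor 87, 39, 32 and 5071, each high in HFD replicate 2 alone, while Mtor itself was below background there.

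The Rag and Ragulator list holds proteins that bring mTORC1 to the lysosome and proteins that regulate this step, in either direction. Of its 19 genes, 18 were tested and 0 called by edgeR, with 6 log2 fold changes positive and 12 negative. Of the 19 genes 12 and 11 were above background in ND and 2 and 6 in the HFD libraries. Over all protein-coding genes the share was also lower in HFD, at 24.9% and 22.1% in ND and 13.3% and 15.2% in HFD. Lamtor5, a Ragulator subunit, was high in both ND libraries, with 11505 and 24747 counts, and low in both HFD libraries, with 8 and 44. Its log2 fold change was -9.41 (SE 2.67, 95% interval -16.03 to -2.79), with an adjusted p of 0.406 in edgeR and 4.7e-11 in DESeq2 on all genes. Lamtor2, called lower by DESeq2, had 1064, 21, 5 and 36 counts, and Sec13, called higher, had 36, 50, 9 and 3688. Nprl2, a subunit of the complex that holds back the Rag GTPases, had 8 and 5 counts in ND and 15 and 14 in HFD. Flcn, folliculin, had 34 and 53 in ND and 11 and 23 in HFD.

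Among 8 genes on the output side, which includes the S6 kinase and 4E-BP branches, edgeR called 0. Rps6, the ribosomal protein that S6 kinase phosphorylates, was the most abundant per kilobase, with 6451 and 9155 counts in ND and 1949 and 19 in HFD. Its counts in ND replicate 1 and HFD replicate 1 came from libraries where Rps6kb1 was below background. Both genes had their most counts in ND replicate 2 and their fewest in HFD replicate 2. Eif4e, the cap-binding protein released by the 4E-BPs, had 10553, 156, 27 and 21 counts (log2 fold change -7.24, SE 2.74, adjusted p = 0.406 by edgeR), and DESeq2 called it lower. DESeq2 called Eef2k, with 40, 48, 4689 and 24 counts, and Eif4b, with 75, 104, 17 and 2864, higher, each of them high in 1 HFD library. In the LKB1 and AMPK list, which senses energy shortage upstream of TSC2, 5 of 6 genes were tested and neither tool called any. The most abundant gene of the list, Stk11, had 39 and 35 counts in ND and 78 and 51 in HFD.

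**Figure D4:**
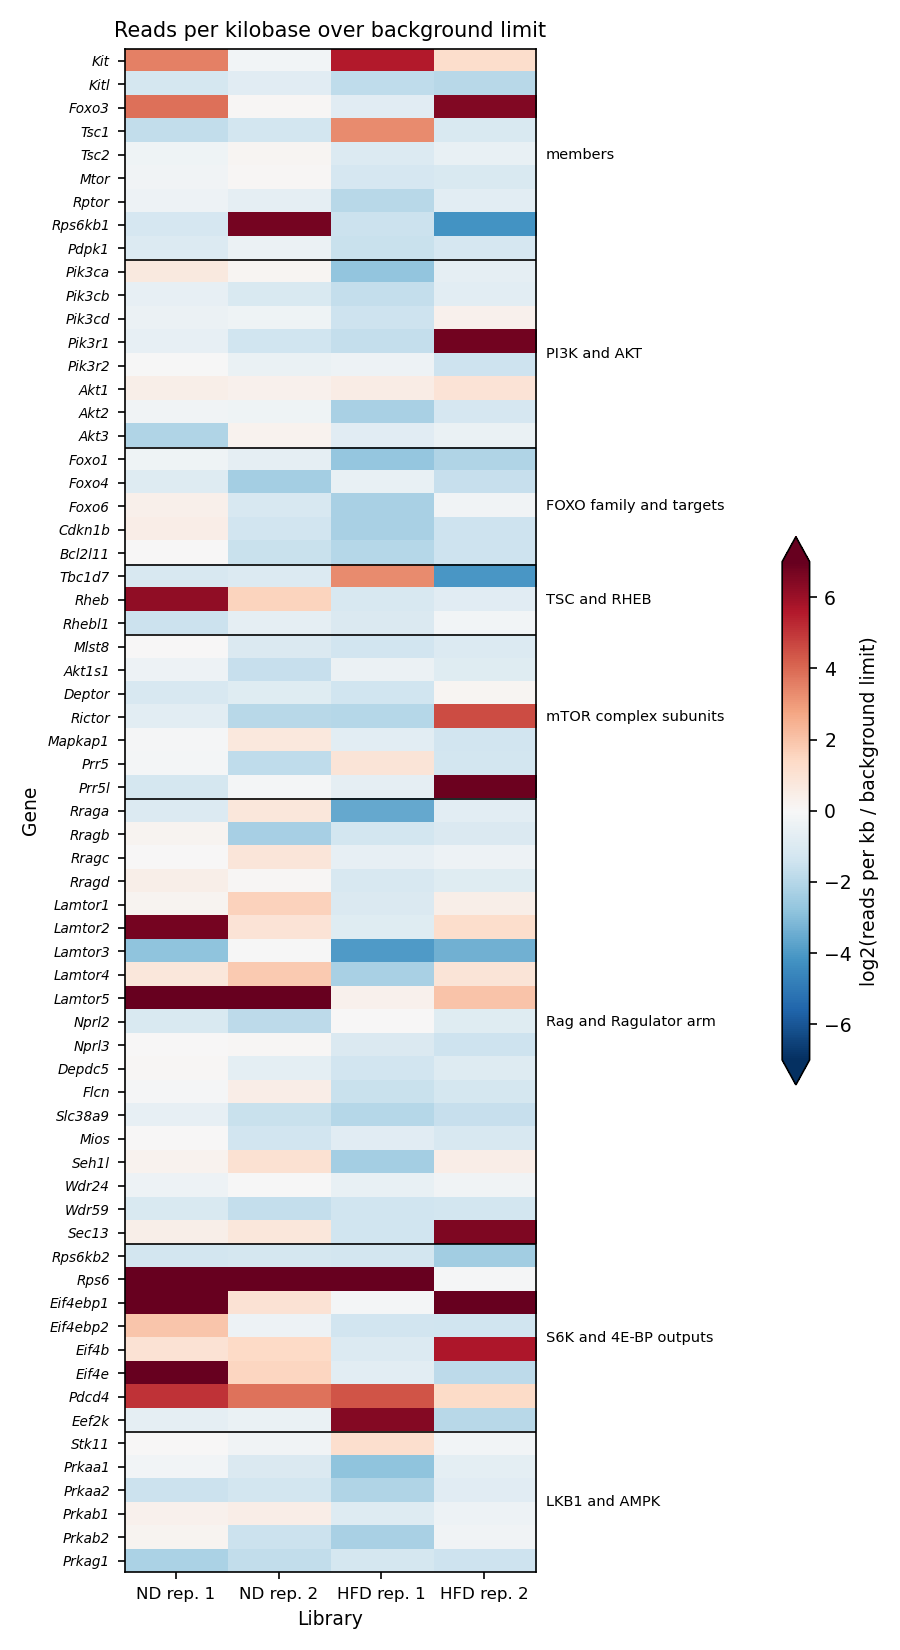
Reads per kilobase of exon divided by each library's background limit, on a log2 colour scale, for the 9 follicle activation genes and other genes of the 7 pathway lists; rows are genes, columns are the 4 libraries, red is above the limit and blue below. The row of Rps6kb1 has a single dark red cell, in ND replicate 2, and is under the limit elsewhere. Foxo3 is highest in HFD replicate 2 and is also well above the limit in ND replicate 1, at 14.6 times.

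Markers of other cell types differed between the libraries as well. Summed stromal markers stood at 2843, 69.0, 2222 and 7700 CPM in ND replicates 1 and 2 and HFD replicates 1 and 2, with collagen genes leading in the 3 high libraries. Endothelial markers were highest in HFD replicate 1 at 709 CPM, nearly all Kdr, and red blood cell markers in ND replicate 1 at 1972 CPM. Immune cell markers summed to 8.06 to 31.3 CPM. The high libraries of Kit and Tsc1 (HFD replicate 1) and of Foxo3 (HFD replicate 2) were among the 3 with high stromal sums. That of Rps6kb1 (ND replicate 2) was the one with the low sum. The sums rested on few genes: of the 9 stromal markers, 6 and 4 were above background in ND and 3 and 6 in HFD. By CPM, 8 were higher in ND replicate 1 than in ND replicate 2, and 8 in HFD replicate 2 than in HFD replicate 1. The median stromal marker stood at 2.63 CPM in HFD replicate 1, below the 4.61 CPM of ND replicate 2. The part of these cells in the levels of the follicle activation genes was not tested, and fewer cells of a type cannot be told apart from less RNA per cell in pooled libraries.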

How the data were processed

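SMART-Seq2 RNA-seq of 2 ND and 2 HFD libraries, grouped by the treatment label, was analysed. Per the labels and the study's methods, the deposited values are raw counts per gene from featureCounts, after HISAT2 alignment to mm10 of reads checked with FastQC and trimmed with Trim Galore. The annotation release, strand setting and handling of multiply aligned reads are not given in the sources used here. Of 55401 identifiers, 55141 matched GENCODE M21 (GRCm38), which gave symbols, positions and exon lengths, and 260 did not.

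From the counts, CPM by library total, RPKM and the background limit were computed. Diets were compared in R 4.3.3 with edgeR 4.0.16 (quasi-likelihood, legacy FALSE, TMM, filterByExpr, Benjamini-Hochberg adjustment), and a gene was called at an adjusted p under 0.05 and a fold change over 1.5. The SE was obtained by dividing the size of the log2 fold change by the root of its F statistic. All 9 members passed the filter. Alternatives were RLE or library size scaling, other count filters, DESeq2 1.42.0, limma-voom (limma 3.58.1), edgeR's legacy fit, a replicate block, no fold minimum and each library left out, in edgeR and, added after the data were seen, in DESeq2. Intervals and floors cover counting error only, since PCR reads without molecular identifiers are not independent molecules.

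The members, pathway lists, marker lists and background measure were chosen with earlier results of these data known. Named beside the members are pathway genes called by edgeR or by DESeq2 on all genes, the most abundant gene per kilobase of each pathway list, the 2 protein-coding genes nearest to each member, and the leading or absent markers. Akt1, Pdcd4, Foxo1, Flcn, Nprl2, Sycp1 and Nobox were named after their values were seen, and Pdgfra, Kdr, Pkd1 and Rnft1 for their position beside a member. Some items that this rule would name are not reported here.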

Additional observations from a re-analysis of the deposited data

How the results depend on the processing

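The number of genes called was 0 with edgeR under every scaling, filter, left-out library and the replicate block, and with limma-voom, which had 750 genes at an unadjusted p under 0.05. It was 2539 of 5601 with DESeq2 on all genes, 2102 with DESeq2 on the filterByExpr genes, 34 with edgeR's legacy fit (12 higher, 22 lower) and 1031 with the replicate block in DESeq2. Members called were 2, 1 (Rps6kb1), 0 and 1 (Rps6kb1) in these 4 fits, and the other pathway genes called were 11, 8, 0 and 5. Log2 fold changes of Rps6kb1 were -7.72, -7.62 and -5.13 in the 3 DESeq2 fits of all 4 libraries. Library size only turned Tsc2 to 0.0096 and Rptor to 0.086. Leaving out 1 library at a time, fold changes on the log2 scale ran from -1.04 to 5.21 for Kit, -3.03 to 5.56 for Foxo3, 0.68 to 5.34 for Tsc1, -9.73 to -0.39 for Rps6kb1, -0.79 to -0.02 for Kitl, -0.92 to -0.29 for Mtor, -0.66 to 0.18 for Pdpk1, -0.86 to 0.058 for Rptor and -0.59 to 0.10 for Tsc2. In these fits the lone library of a diet is assumed to vary like those of the other. DESeq2 on all genes with 1 library left out, added after the data were seen, called 1302 (without ND replicate 1) to 2042 genes (without HFD replicate 2), with 1795 without ND replicate 2 and 1610 without HFD replicate 1. It called 0 to 3 members and 6 to 9 other pathway genes, and changed the sign of Kit (-0.97), Foxo3 (-3.10), Tsc2 (0.13), Rptor (0.11) and Pdpk1 (0.21). Over all alternatives for single members, 139 of 161 values kept direction and call, 12 changed sign and 10 gained a call. With a minimum of 10 counts in every sample Rps6kb1 had no value. Both diets carry replicate numbers 1 and 2, but nothing says that they pair the samples. The deviations of same-numbered libraries correlated at r = 0.0112 over 19335 genes, and the replicate block in edgeR gave 0 calls with 1482 genes at an unadjusted p under 0.05, against 2171 without it. With the 95th percentile of olfactory receptor genes as the limit, 15 of 36 member values were above background, against 10. With more than 3 counts as the sole limit, 36 of 36 would be. The causes of these differences were not tested, and 2 libraries per diet limit what can be told for all 9 genes.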
